A study of Poecilia latipinna with 15 samples.

Results

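Whole brains of female sailfin mollies (Poecilia latipinna, a small livebearing fish) that had chosen between males were compared by how decided the choice had been. Of 15 females in all, 8 had met male stimuli, the male-interaction context (Mm), and these 8 are the females described here. The 5 choosy Mm females had a preference score above 0.7 and carried the fish numbers 3, 4, 5, 6 and 10 (FPL3, FPL4, FPL5, FPL6 and FPL10). The 3 unchoosy Mm females had a score below 0.6 and carried the numbers 11, 12 and 13 (FPL11, FPL12 and FPL13). The preference score is the share of all movements directed at the stimulus fish that went to the favored one. All 8 were sexually experienced fish from outdoor ponds that were isolated for 2 weeks and then tested for 30 min without contact. The stimuli were 2 males that, per the paper, differed in size and mating tactic, a large courting male and a small coercive one. The stimuli changed sides after 15 min. The brain was taken directly after the trial, and each female gave 1 library. The other 7 females met female stimuli under the same procedure, the female-interaction context (Ff). They entered the filter on low levels but not the main fits that called transcripts in Mm females. Alternative fits over all 15 females are named as such. There was no female without a social partner, so no value here is a change from a resting state.

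In mate choice by female livebearing fish, the female inspects males, weighs size and display, and directs approach and gliding movements at the one she prefers. Such a decision draws on sensory areas, on reward and motor circuits of the forebrain and on the hypothalamus, all of which are pooled in a whole-brain library. RNA taken right after a short trial holds both fast responses to the encounter and the standing differences between individuals, for instance in size, age and reproductive state. In bulk tissue, fewer cells of a type and less RNA per cell cannot be told apart. The deposited tables name Ensembl transcripts, and nothing used here pairs those identifiers with genes. Pathways, cell type markers and the labelled tissue were therefore not checked, and the transcripts are described by their level, their length and their behavior across females.

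The 2 classes differed in more than the score. The scores were 0.867 in FPL3, 1 in FPL4, 0.987 in FPL5, 0.762 in FPL6 and 0.763 in FPL10, against 0.56 in FPL11, 0.516 in FPL12 and 0.559 in FPL13. The scores nearest to the limits were thus 0.762 among choosy and 0.56 among unchoosy females, so that no Mm female stood between the classes. Standard length was 51.4, 40.5, 47.8, 46 and 44.6 mm in FPL3, FPL4, FPL5, FPL6 and FPL10, against 32.3, 35.4 and 34.4 mm in FPL11, FPL12 and FPL13. Every choosy female was longer than every unchoosy female. The means were 46.1 ± 4.02 mm in choosy females (SD, n = 5) and 34.0 ± 1.58 mm in unchoosy females (SD, n = 3), with a 2-sided exact permutation p = 0.0179, the smallest that 5 against 3 females allow. Adjusted over the 7 measures tested in this way the p was 0.0625. Time near the stimuli averaged 1588 ± 69.2 s in choosy females (SD, n = 5) and 1673 ± 115 s in unchoosy females (SD, n = 3). The difference was within the spread (exact permutation p = 0.25, adjusted p = 0.292). The study had kept only females that spent most of the trial near the stimuli, which narrowed the range of this time. Fish number was split as well, since FPL10 was the only choosy Mm female numbered above 8 and no unchoosy Mm female was numbered below 9. The labels do not say what the numbers stand for. Preference class, body size and fish number cannot be told apart in FPL3 to FPL6 and FPL11 to FPL13, and only FPL10 separates class from number.

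**Figure D1:**
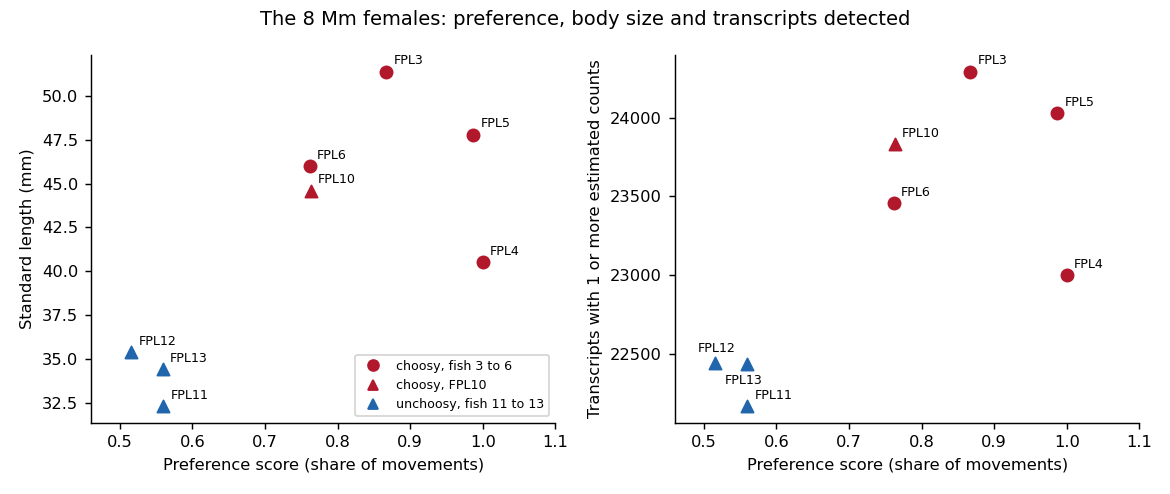
The 8 Mm females by preference score (horizontal axis, share of movements) and by standard length in mm (left) or transcripts with 1 or more estimated counts (right); each point is 1 female, red choosy and blue unchoosy, with a triangle for fish numbers above 8. FPL10 lies with the choosy females on both vertical axes, at 44.6 mm and 23834 transcripts.

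The libraries held 3424641 to 9989142 estimated counts in choosy females and 5483972 to 5928711 in unchoosy females (exact permutation p = 0.804). The means were 6156900 in choosy and 5690100 in unchoosy females, a difference within the spread. A rounded count of 1 or more was found for 23722 ± 505 transcripts in choosy females (SD, n = 5) and for 22351 ± 156 in unchoosy females (SD, n = 3), again without overlap (exact permutation p = 0.0179, adjusted p = 0.0625). FPL4, the shallowest library of all 8, still had 23001, against 22444 in the highest unchoosy female. The 100 most abundant transcripts took 15.9% of the counts in FPL3, 15.8% in FPL4, 16.6% in FPL5, 16.4% in FPL6 and 18.6% in FPL10, against 17.6% in FPL11, 17.2% in FPL12 and 19.7% in FPL13. In this measure FPL10 lay inside the unchoosy range, and over all 5 choosy females the classes overlapped (exact permutation p = 0.143, adjusted p = 0.2). The part of these differences between libraries in the results below was not tested.

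Choosy and unchoosy Mm females differed in 2345 of 21671 transcripts (10.8% of those tested) at an unadjusted limma p below 0.05. When nothing differs, 5% lie below this limit on average. Transcripts that vary together can move the share of a single comparison away from 5%, and its spread was not estimated. Of the 2345, 1015 were higher in choosy females and 1330 lower. The median size of the log2 difference was 0.74 over the called transcripts and 0.30 over all, and 824 called transcripts differed by more than 1 on the log2 scale. None of them passed an adjusted p of 0.05 (Benjamini-Hochberg) in limma, where the count was 0 and the smallest adjusted p 0.402. With edgeR 2110 were called and 0 passed the adjusted threshold, and with DESeq2 2247 were called and 219 passed it. Other limma settings gave adjusted counts of 24 with every transcript that had a count, 40 with standard length as a term, 49 with affiliation time as a term, and 9 and 25 on the log2(TPM + 1) and log2(TPM + 0.1) scales. The counts and directions below are therefore read over the list of calls and not for single transcripts. With the other tests and units the share of calls higher in choosy females moved across the middle, from 43.3% to 51.4% with edgeR, 51.7% with DESeq2, 53.3% without library scaling factors and 65.2% with log2(TPM + 1). No net direction of the list is stated for this reason.

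In 1528 transcripts, 7.05% of those tested, the 5 choosy values and the 3 unchoosy values did not overlap. All choosy females lay above all unchoosy ones in 711 transcripts and below them in 817. Of the 2345 called transcripts, 1169 (49.9%) were separated in this way. Calls and separation come from the same 8 values, so this share is no separate support for the calls. A complete presence in one class and absence in the other was rare. At least 10 estimated counts in every choosy female with 0 in every unchoosy female were found for 16 transcripts, and the reverse for 3. These counts are not compared, since a count of 0 was asked of 3 females for the 16 and of 5 for the 3. With FPL10 left out, the counts were 21 and 10. Choosy libraries also held more transcripts with a count, as given above, and the part of this was not tested.

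The direction of the calls varied with how abundant and how long a transcript was. Of the called transcripts with a mean above 100 TPM (Kallisto's level per transcript, scaled for its length and for the total of the library), 36 were higher and 218 lower in choosy females, so that 14.2% of these 254 calls were higher. Between 20 and 100 TPM 31.6% of the calls were higher, between 5 and 20 TPM 53.9%, and up to 5 TPM 54.9%. The band of 20 to 100 TPM turned to 57.9% and 57.8% higher on the log2(TPM + 1) and log2(TPM + 0.1) scales, while the bands up to 20 TPM stayed between 52.1% and 78.7% higher. Among the most abundant transcripts 18.9% were called, against 7.89% of those up to 5 TPM. All transcripts tested shifted by level too, called or not. Their median log2 difference was 0.242 up to 5 TPM, 0.0704 from 5 to 20, -0.0314 from 20 to 100 and -0.101 above 100. By length the median was 0.11 up to 500 bases, 0.02 from 500 to 1000, -0.00585 from 1000 to 3000 and 0.0952 above 3000. By length, 67.4% of the calls above 3000 bases were higher in choosy females, against 33.7% from 1000 to 3000 bases, 32% from 500 to 1000 and 35.1% up to 500. Under the other tests, units and scalings run on the 8 females, 12.8% to 30.7% of the calls above 100 TPM and 64.4% to 81.8% of the calls above 3000 bases were higher in choosy females. For transcripts up to 3000 bases the direction did not hold, with 33.5% higher in voom and limma and 32% to 63.7% under the alternatives, the values above 50% all on the log2 TPM scale.

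**Figure D2:**
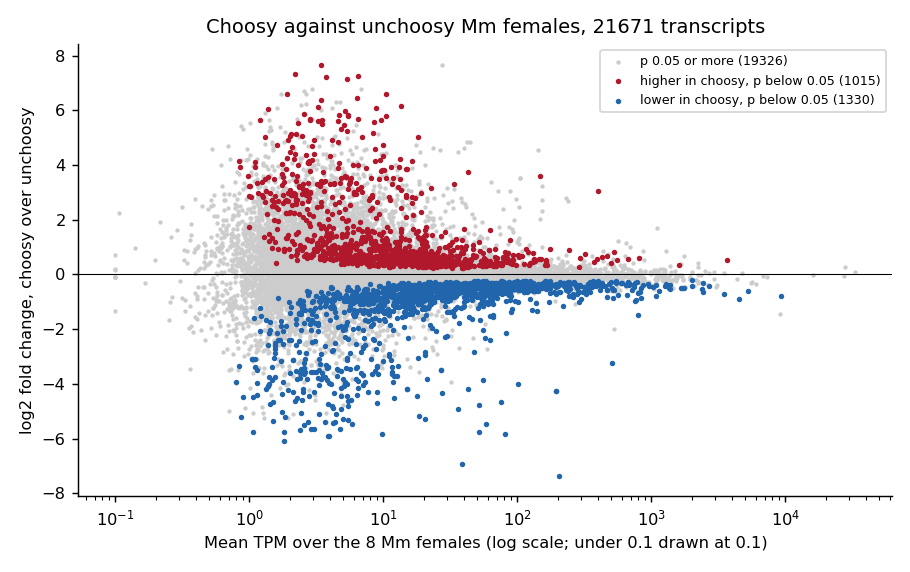
Each point is 1 of 21671 transcripts, with its mean TPM over the 8 Mm females on a log scale (horizontal axis) and the log2 fold change of choosy over unchoosy females (vertical axis). Red marks the 1015 transcripts called higher and blue the 1330 called lower in choosy females, and blue points prevail at the right, above 100 TPM, where 218 of 254 calls were lower.

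The libraries themselves were also compared by the length of the transcripts they held. The count-weighted mean transcript length was 2893 bases in FPL3, 2831 in FPL4, 2789 in FPL5, 2781 in FPL6 and 2684 in FPL10, against 2710 in FPL11, 2767 in FPL12 and 2574 in FPL13. FPL3 to FPL6 lay above every unchoosy female and FPL10 within the unchoosy range, and over all 5 choosy females the classes overlapped (exact permutation p = 0.143, adjusted p = 0.2). The part of library composition in the direction by length or level was not tested. In the 7 Ff females, those numbered 1 to 8 were compared with those numbered 9 to 19. This gave 24.7% higher among calls above 100 TPM and 57.3% higher among calls above 3000 bases. In the shorter bands it gave 35.6% up to 500 bases, 36.3% from 500 to 1000 and 39% from 1000 to 3000. The comparison of choosy with unchoosy Ff females gave 37% above 100 TPM. By length it gave 65.3% up to 500 bases, 55.9% from 500 to 1000, 54.2% from 1000 to 3000 and 63.5% above 3000. That of FPL10 with the unchoosy Mm females, which shares those females with the main comparison, gave 31% above 100 TPM. By length it gave 81.8%, 70.5%, 69.7% and 71% in the same order. In Ff females by score, the shares up to 500 and above 3000 bases rest on 49 and 208 calls and lie close together. The direction of the FPL10 calls turned with the test, as given below. None of the comparisons by fish number, by score and with FPL10 was repeated by level or length under other tests. No order by level or length is therefore read from them.

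The clearest single transcripts were taken as the pair with the smallest p in each direction among those whose classes did not overlap. This choice used the Mm values, which favors a larger effect in Mm than in Ff females. The differences between contexts given for these transcripts are therefore no independent support. ENSPLAT00000005849.1, 4588 bases long, had 18.5, 20.7, 13.7, 13.7 and 16.3 TPM in the choosy females FPL3, FPL4, FPL5, FPL6 and FPL10, against 7.4, 9.24 and 5.74 TPM in the unchoosy females FPL11, FPL12 and FPL13. Every choosy female was above every unchoosy one, and FPL10 stood in the middle of the choosy range. The means were 16.6 ± 3.05 TPM in choosy females (SD, n = 5) and 7.46 ± 1.75 TPM in unchoosy females (SD, n = 3), with a log2 fold change of 1.08 (standard error 0.19, limma adjusted p = 0.402). In Ff females the order was not seen. The level was 11.5 and 12.5 TPM in the choosy Ff females FPL2 and FPL7, against 12.9, 17.5, 18.6 and 11.4 TPM in the unchoosy Ff females FPL8, FPL9, FPL17 and FPL19. The log2 difference of choosy minus unchoosy was -0.34 in Ff females (standard error 0.228), and the difference between the contexts was 1.42 (standard error 0.29), called on the unadjusted p (limma adjusted p = 0.999).

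ENSPLAT00000000860.1, a long transcript of 8479 bases, had 6.24, 6.36, 4.63, 4.83 and 3.28 TPM in FPL3, FPL4, FPL5, FPL6 and FPL10, against 1.87, 1.38 and 1.66 TPM in FPL11, FPL12 and FPL13. FPL10 was the lowest choosy female here, though still above the unchoosy range. The means were 5.07 ± 1.27 TPM in choosy females (SD, n = 5) and 1.63 ± 0.249 TPM in unchoosy females (SD, n = 3), with a log2 fold change of 1.51 (standard error 0.27, limma adjusted p = 0.402). The Ff females had 4.99 and 4.13 TPM in the choosy FPL2 and FPL7, against 3.65, 5 and 2.45 TPM in the unchoosy FPL8, FPL17 and FPL19. In the unchoosy Ff female FPL9 the same transcript had a rounded count of 0, so that no fold is given for Ff females. With all 15 females in 1 fit the log2 fold change in Mm females stayed at 1.51 but was no longer called (limma adjusted p = 0.602). With the fish-number group as a further term it was 0.39 and not called (limma adjusted p = 0.991). Both fits include FPL9 with its count of 0, and the part of this female in the lost calls was not tested.

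ENSPLAT00000008588.1, 783 bases long, had 100, 74.6, 69.5, 82.1 and 88.9 TPM in FPL3, FPL4, FPL5, FPL6 and FPL10, against 179, 267 and 162 TPM in FPL11, FPL12 and FPL13. The highest choosy level was well under the lowest unchoosy level, and FPL10 lay inside the range of the other choosy females. The means were 83.1 ± 12.2 TPM in choosy females (SD, n = 5) and 202 ± 56.8 TPM in unchoosy females (SD, n = 3), with a log2 fold change of -1.31 (standard error 0.17, limma adjusted p = 0.402). Choosy Ff females had 92 and 103 TPM, against 140, 116, 167 and 115 TPM in unchoosy Ff females, the same order without overlap but at a smaller distance, with a log2 difference of -0.50 (standard error 0.188) that was called on the unadjusted p (limma adjusted p = 0.999). The difference between the contexts was -0.81 (standard error 0.258), also called on the unadjusted p (limma adjusted p = 0.999).

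ENSPLAT00000015970.1, 2993 bases long, had 48.2, 45.1, 34.1, 44.8 and 45.4 TPM in FPL3, FPL4, FPL5, FPL6 and FPL10, against 96.6, 89 and 65.8 TPM in FPL11, FPL12 and FPL13. Choosy females lay close together apart from FPL5, and all were below the unchoosy females. The means were 43.5 ± 5.43 TPM in choosy females (SD, n = 5) and 83.8 ± 16 TPM in unchoosy females (SD, n = 3), with a log2 fold change of -1.01 (standard error 0.14, limma adjusted p = 0.402). In Ff females the levels were 50.4 and 33.3 TPM in the choosy FPL2 and FPL7, against 45.6, 84.5, 48.4 and 57.3 TPM in the unchoosy FPL8, FPL9, FPL17 and FPL19. These overlapped, and the difference between the contexts was -0.48 (standard error 0.338, limma adjusted p = 0.999), which was not called.

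**Figure D3:**
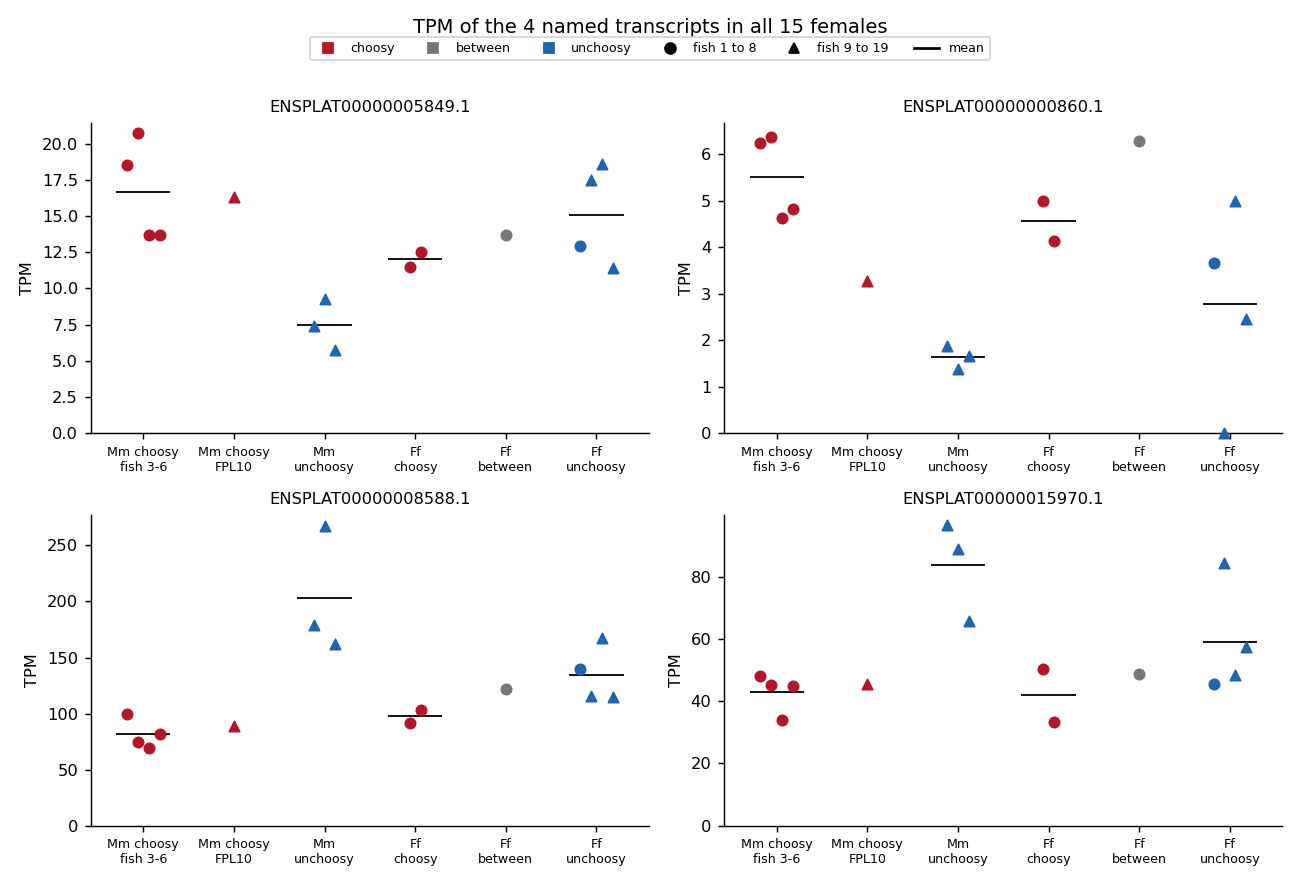
TPM (vertical axis, from 0) of the 4 transcripts named in the text, with 1 point per female, the mean as a bar where a group has more than 1 female, red for choosy, blue for unchoosy and grey for the Ff female between the classes, and triangles for fish numbers above 8. In all 4 panels FPL10 lies on the choosy side of the 3 unchoosy Mm females, for instance at 16.3 TPM against 5.74 to 9.24 TPM in ENSPLAT00000005849.1.

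FPL10 is the female that carries a choosy score and a number above 8. In score and size it was almost a copy of FPL6, with 0.763 against 0.762 and 44.6 against 46 mm. In the first principal component of the 8 Mm females, which held 22.1% of the variance, the scores were -78.7 in FPL3, -69.3 in FPL4, -88.0 in FPL5, -7.91 in FPL6 and -8.58 in FPL10, against 129 in FPL11, 116 in FPL12 and 7.63 in FPL13. FPL6, FPL10 and FPL13 stood together near 0, and the split was carried by 3 females on one side and FPL11 and FPL12 on the other. Over all transcripts tested, Spearman's rho of FPL10 averaged 0.913 with FPL3 to FPL6 and 0.910 with the unchoosy females, with ranges of 0.907 to 0.925 and 0.903 to 0.922. These are correlations across transcripts, which are not independent replicates, and the ranges overlap. Each of FPL3 to FPL6 averaged 0.921 to 0.936 with the others of that group. Each unchoosy female averaged 0.898 to 0.905 with the others of her class. FPL13 averaged 0.907 with FPL3 to FPL6 and 0.898 with her own class, so the unchoosy females formed no clear side. By overall likeness FPL10 could not be placed on either side.

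To place FPL10 with transcripts that it had not helped to choose, the classes were compared without it. FPL3 to FPL6 differed from the unchoosy females in 3383 transcripts (15.6% of those tested), more than with FPL10 among the choosy females, with 1516 higher and 1867 lower in FPL3 to FPL6. In limma 2 of them, both lower, passed the adjusted threshold. On each of the 3383 transcripts the level of a female was then expressed as a position, where 0 is the mean of the unchoosy and 1 the mean of the choosy females in the fit. The median position of FPL10 was 0.264, with quartiles of -0.09 and 0.69, so that it lay nearer to the choosy mean in 35% of the transcripts. It was 0.351 over the transcripts higher and 0.214 over those lower in FPL3 to FPL6. In 2420 of the called transcripts FPL3 to FPL6 and the unchoosy females did not overlap. Of these, FPL10 reached into or beyond the unchoosy range in 1294 (53.5%) and into or beyond the choosy range in 635 (26.2%). It lay between the ranges in 491 (20.3%). The transcripts without overlap were not counted over all those tested, and no other female was placed against the ranges. These shares therefore have no scale to be read against.

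The median position of the other Mm females, each held out in turn with FPL10 in no fit, shows what a held-out member of either class looks like. The choosy females FPL3, FPL4, FPL5 and FPL6 had median positions of 0.981, 0.872, 0.836 and 0.635, and the unchoosy females FPL11, FPL12 and FPL13 of 0.315, 0.351 and 0.457. FPL10, at 0.264, was thus below all 4 of the other choosy females and also below all 3 unchoosy females. Its order against the unchoosy females is not read as a result. Each unchoosy female was placed on transcripts chosen without her, whereas all 3 helped to choose those used for FPL10. The fits behind these values differ, since each leaves out another female, and they cover 2371 to 3496 transcripts. With FPL10 left among the choosy females, the held-out positions were 0.442, 0.478 and 0.669 in FPL11, FPL12 and FPL13 and 0.643 to 1 in FPL3 to FPL6. FPL13, unchoosy, then stood above FPL6, choosy. The value of FPL10 rested in part on FPL13, without which it was 0.437 instead of 0.264.

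Ff females, which entered none of these fits, were placed on the same 3383 transcripts. Those numbered 1 to 8 had median positions of 0.923 in FPL1, 0.952 in FPL2, 0.694 in FPL7 and 0.704 in FPL8, and those numbered 9 to 19 of 0.13 in FPL9, 0.327 in FPL17 and 0.196 in FPL19. The 2 number groups did not overlap. Standard length was 52.4, 44.6, 40.2 and 53.1 mm in FPL1, FPL2, FPL7 and FPL8, against 43.9, 30.3 and 34.5 mm in FPL9, FPL17 and FPL19, and its part was not tested. Within the low numbers FPL8, with a score of 0.571 that is unchoosy by the same limits, stood beside FPL7 with a score of 0.788. Likewise FPL1, with 0.63, stood beside FPL2 with 1. FPL8 was the only unchoosy female among them, and the part of the score was not tested. Over both contexts, the 8 females numbered 1 to 8 lay between 0.635 and 0.981 and the 7 numbered 9 to 19 between 0.13 and 0.457. FPL10, at 0.264, lay inside the second range. The positions of FPL3 to FPL6 and FPL11 to FPL13 come from fits that each left out that female, so the scale differs between females. Among the other Mm females class and number coincide, and the axis is built from these females. What part number or class had in the positions was not tested. Scores were unequally spread over the numbers, with FPL10 as the only choosy female above 8 and FPL8 as the only unchoosy female below 9, so that these 2 females alone separate score class from number.

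**Figure D4:**
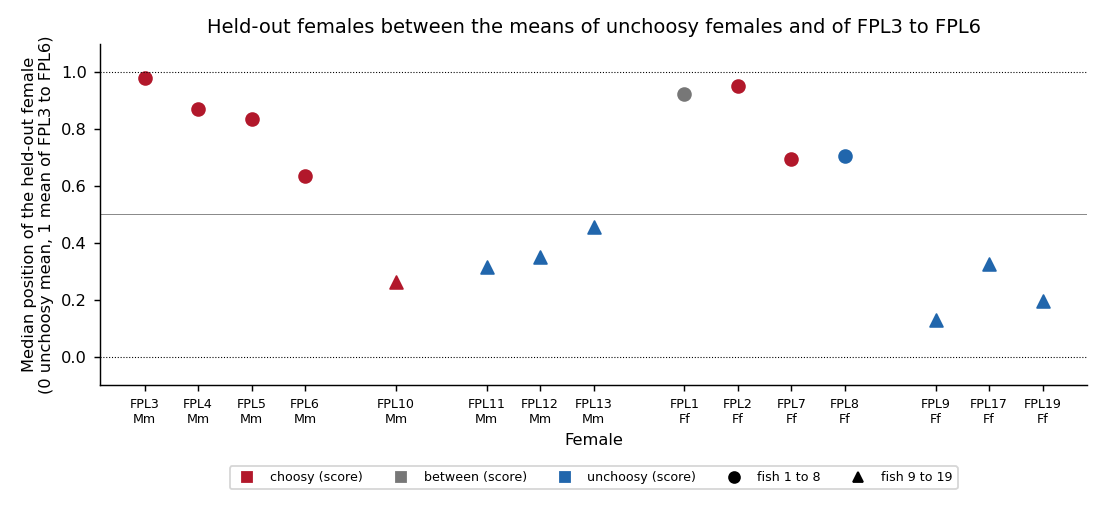
Median position of each of the 15 females (vertical axis, no unit). The mean of the unchoosy Mm females is 0 and that of FPL3 to FPL6 is 1. Each female was outside the fit that chose the transcripts, and FPL10 was in no fit. FPL3 to FPL6 and FPL11 to FPL13 were each left out of their own class mean, so the scale differs between females. Colors give the score class and shapes the fish number. All circles (fish 1 to 8) lie at 0.635 or above and all triangles (fish 9 to 19) at 0.457 or below, with FPL10, red, at 0.264.

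FPL10 was then set directly against each side. Against the 3 unchoosy females it differed in 1509 transcripts (6.96% of those tested), with 1074 higher and 435 lower in FPL10, and 0 after adjustment in limma (smallest adjusted p = 0.139) but 8 in edgeR, which called 1110. The share higher in FPL10 was 71.2% in voom and limma but 42.2% in edgeR and 42.2% on the log2(TPM + 1) scale, so no direction is stated. FPL3 to FPL6 differed from FPL10 in 2529 transcripts (11.7% of those tested), with 831 higher and 1698 lower in FPL3 to FPL6, and 2 after adjustment in limma and 14 in edgeR. This split too turned with the test, from 32.9% higher in voom and limma to 54.6% in edgeR and 75.3% with log2(TPM + 1). Both comparisons rest on a single female in 1 arm, who is assumed to vary like the others, and they share FPL10, so they are given side by side only. The group sizes differ, 1 against 3 and 4 against 1, and the counts are not equal measures of distance.

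In the 4 named transcripts FPL10 stood with the choosy females, as their choice required. On the log2 scale FPL10 differed from the unchoosy females by 1.20 ± 0.263 in ENSPLAT00000005849.1, 1.05 ± 0.303 in ENSPLAT00000000860.1, -1.10 ± 0.272 in ENSPLAT00000008588.1 and -0.82 ± 0.213 in ENSPLAT00000015970.1 (± 1 standard error). FPL3 to FPL6 minus FPL10 gave -0.15 ± 0.234, 0.58 ± 0.256, -0.26 ± 0.279 and -0.24 ± 0.212 in the same order of transcripts, none of them called. FPL10 had been 1 of the 5 females that chose these transcripts.

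FPL10 was also placed by presence and absence. Without it, 21 transcripts had at least 10 estimated counts in each of FPL3 to FPL6 and 0 in each unchoosy female, and of these FPL10 had 10 or more in 16 and 0 in 3. Of the 10 transcripts with at least 10 counts in each unchoosy female and 0 in each of FPL3 to FPL6, FPL10 had 10 or more in 6 and 0 in 3. In both sets FPL10 thus had the transcript in most cases. How many of all transcripts tested reach 10 counts in FPL10 was not counted, and no other female was placed this way. These counts therefore do not place FPL10 on either side.

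The same split of scores in Ff females, which share no library with the Mm comparison, was made between the choosy FPL2 and FPL7 and the unchoosy FPL8, FPL9, FPL17 and FPL19. It gave 690 called transcripts (3.18% of those tested), 401 higher and 289 lower in choosy females. The adjusted threshold was passed by 0 transcripts in limma (smallest adjusted p = 0.999), and edgeR called 672. Without FPL8 the count was 1616 and without FPL19 459, so that it rested on single females. Of the 2345 transcripts called in Mm females, 78.2% had the same sign in Ff females, against 62.1% of all transcripts tested. The share was 77.6% of the 1015 called higher and 78.6% of the 1330 called lower. With the same sign in both, 145 transcripts were called in both contexts, 6.18% of the Mm calls and 21% of the Ff calls, and 17 were called with opposite signs. Among all transcripts tested, 2.4% were called in Ff females with the Mm sign.

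Splitting the Ff females by fish number instead, FPL1, FPL2, FPL7 and FPL8 against FPL9, FPL17 and FPL19, gave 2683 called transcripts (12.4% of those tested), 1163 higher and 1520 lower in the low numbers, with 1 after adjustment in limma. Of the Mm calls, 80.4% had the sign of this split, against 65.3% of all transcripts tested. Those called in both with the same sign numbered 618, which is 26.4% of the Mm calls and 23% of the calls by number, and 25 had opposite signs. Among all transcripts tested, 10% were called by number with the Mm sign. The score and number splits of the Ff females share most of their females, so they are set side by side and not compared by a test.

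FPL8 allows score class and number to be set apart as far as single females go. Within fish 1 to 8, choosy FPL2 and FPL7 against unchoosy FPL8, 54.9% of the Mm calls had the Mm sign, against 50% of all transcripts tested, with 50.2% of those called higher and 58.5% of those called lower. Within the unchoosy Ff females, FPL8 against FPL9, FPL17 and FPL19, where the score class is the same and the number group differs, 72.6% of the Mm calls had the Mm sign, against 61.7% of all. FPL8 also differed from the other 3 in standard length, with 53.1 mm against 43.9, 30.3 and 34.5 mm, and in depth, with 10555933 estimated counts against 5465613, 6412442 and 5301116, so that number, size and depth cannot be told apart in this split. Both splits rest on FPL8 as 1 of the arms, were made after the data had been seen, and are shares over transcripts, with no test over females.

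**Figure D5:**
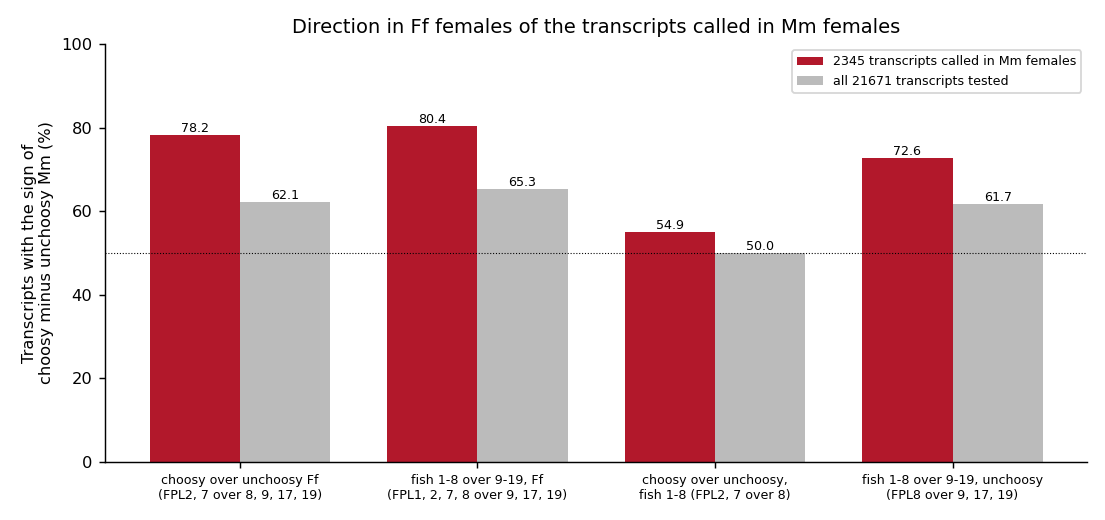
Percent of transcripts (vertical axis, 0 to 100) whose difference in Ff females had the sign of choosy minus unchoosy in Mm females, for the 2345 transcripts called in Mm females (red) and for all 21671 tested (grey), in 4 splits of the Ff females; the dotted line is 50%. The split by score within fish 1 to 8 gave 54.9% and the split by number within unchoosy females 72.6%.

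The transcripts that set FPL10 apart from the unchoosy Mm females were looked up in the same splits. Of the 1509, 56.5% had the sign of choosy minus unchoosy Ff females, against 51.6% of all transcripts tested, and 60.8% had the sign of low minus high fish numbers, against 53.2% of all. Within fish 1 to 8 the share was 38.4%, against 44.9% of all, so it lay below that of all transcripts. Within unchoosy Ff females it was 64.8%, against 55.7%. The transcripts rest on FPL10 alone and the last 2 splits on FPL8 alone, with no test over females. FPL8 had 10555933 estimated counts, the most of all 15 females, and the part of depth was not tested. The direction of the FPL10 calls turned with the test.

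Whether the choosy effect differed between the contexts was tested directly in 1 model over all 15 females. The difference between Mm and Ff females was called in 603 transcripts (2.78% of those tested), 293 higher and 310 lower in Mm females, and 0 remained after adjustment in limma (smallest adjusted p = 0.999), while edgeR called 624, of which 2 remained. This share is under the 5% that lie below the limit on average when nothing differs, and its spread was not estimated. It does not show that the contexts acted alike, since the Ff side holds 2 choosy females.

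Adding what else differed between the classes changed which transcripts were called. With standard length as a term 820 transcripts (3.78% of those tested) were called in the 8 Mm females, and 264 of these were among the 2345. A fit over all 15 females without a further term called 2130 (9.83%), of which 1777 were among the 2345. With the fish-number group as a term, over all 15 females, 1045 (4.82%) were called, and 491 of these were among the 2345. The shares with standard length and with the fish-number group are under the 5% expected on average when nothing differs. Their spread was not estimated. Even so, 40 transcripts passed the adjusted threshold with standard length as a term, and 0 with the fish-number group. With affiliation time as a term the count was 2137 (9.86%), with 1393 shared. Standard length did not overlap between the classes, and only FPL10 and FPL8 broke the order of class and number, so class and term share most of their variation in these fits.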

How the data were processed

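Per the labels and the paper's methods, the authors sequenced poly(A) RNA single-end, trimmed the reads with cutadapt, checked them with FastQC and pseudoaligned them with Kallisto 0.43.0 to the Ensembl cDNA of P. latipinna. The deposited table of each female lists 31813 transcripts with an estimated count, which is not normalized and need not be whole. The same table holds the TPM that the authors' Kallisto run derived from that count and the transcript's effective length. Reads shared between transcripts are split by Kallisto's model, so values of isoforms and near-identical copies are uncertain. Which female was on which of the lanes is not given in the sources used here. Context and fish number came from the labels, and preference score, affiliation time and standard length from the study's behavioral table.

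At least 3 of the 15 females had to exceed 2 TPM for a transcript to be kept. The 21671 that passed held 99.51% or more of the estimated counts of every female. Another 10142 were left out. Estimated counts were rounded and tested with voom and limma 3.58.1 with TMM factors (edgeR 4.0.16), and a transcript was called at an unadjusted p below 0.05. The study also used voom and limma, on counts summed by gene. Its second criterion, from shuffled labels, was not used. Alternatives were edgeR's quasi-likelihood test, DESeq2 1.42.0, other scalings and filters, log2(TPM + 1) and log2(TPM + 0.1), unrounded counts, quality weights per sample, covariates and leaving out each female. Positions used log2 CPM with a prior count of 0.5. Single values were compared with exact permutation tests over all 56 assignments. Named transcripts were the pair with the smallest p in each direction whose classes did not overlap. The classes, lists and tests were chosen with earlier results of these data known. Each female is a separate animal. No 2 libraries were alike within sampling noise, since the smallest chi-square between any pair among all 15 was 10.36 times its degrees of freedom. Analyses ran in R 4.3.3 and Python 3.11.15, and scripts were tested on simulated counts. The number of counts limits precision most in FPL4, with 3424641.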

Additional observations from a re-analysis of the deposited data

Results flagged for a closer look

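Of 15 groups of values in which 1 female could be compared with the rest of her group, 2 held a female far from the others by Dixon's criterion, where chance alone gives about 1 in 20. ENSPLAT00000015970.1 was at 34.1 TPM in FPL5, against 44.8 to 48.2 TPM in the other choosy Mm females. The 100 most abundant transcripts took 18.6% of the counts in FPL10, against 15.8% to 16.6% in the other choosy Mm females, and 17.2% to 19.7% in unchoosy Mm females.

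The choosy effect differed between contexts, on the unadjusted p of the test of the difference, in ENSPLAT00000005849.1, by 1.42 on the log2 scale (Mm minus Ff, limma adjusted p = 0.999), and in ENSPLAT00000008588.1, by -0.805 (limma adjusted p = 0.999). Neither passed the adjusted threshold. Both transcripts had been chosen for a small p in the same Mm females, so the unadjusted p of this difference is not independent of the choice.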

How the results depend on the processing

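The count of 2345 transcripts called between choosy and unchoosy Mm females stayed within 1.5 times under 21 alternatives, from 1653 without FPL3 to 3383 without FPL10, and moved to 820 with standard length as a term, 1045 with the fish-number group as a term and 0 after Benjamini-Hochberg adjustment in limma. The share of calls higher in choosy females ran from 38.6% with filterByExpr to 73.8% with standard length as a term, and from 37% to 49.3% with 1 female left out. The median position of FPL10 was 0.216 to 0.437 with another Mm female left out, the highest without FPL13, and 0.048 over the 2 transcripts that passed the adjusted threshold. The count in Ff females was 459 to 1616 with 1 female left out, and the share of Mm calls with the same sign in Ff females 70.7% to 79.3%. For these changes the cause was not tested. Of the named transcripts, only ENSPLAT00000000860.1 lost its call, in 2 of 22 alternatives, both with the Ff females in the fit. The splits that FPL10 and FPL8 allow, positions with FPL10 in no fit and leaving females out of the split by number in Ff females, which gave 2127 to 2800 calls, were chosen after seeing the data. No paired analysis was possible because the groups share no fish number. Arms of 1 female have no spread of their own.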
